A study of Mus musculus with 6 samples.

Results

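Fibroblast identity in the right atrium (RA) was read from 10 marker genes, out of 54093 genes with complete values. Of these, 8 mark resident fibroblasts (Pdgfra, Tcf21, Dcn, Lum, Gsn, Dpt, Mfap5 and Pi16), and 2 mark activated fibroblasts (Cthrc1 and Fap). The members were chosen by gene symbol, and each symbol stood on 1 line of the table. RNA came from the RA of wild-type (WT) C57BL/6 mice at P21, with 3 libraries from sham-operated mice and 3 from mice with volume overload (VO). According to the study's methods, VO was made with an aortocaval fistula (ACF), a needle puncture from the abdominal aorta into the inferior vena cava of male or female pups, and both groups were operated on at P7. The labels give no fistula flow or sex for the sequenced tissue and do not say whether a library is 1 animal or a pool, so every p-value below measures only the spread between these libraries. The labels' extraction text names a rat although the organism is given as mouse. Libraries are named by their group and replicate number.

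Cardiac fibroblasts make and turn over the collagen-rich matrix around cardiomyocytes, and most descend from the epicardium. Pdgfra and Tcf21 mark the resident cells, while Dcn, Lum, Dpt and Mfap5 encode matrix proteins that they secrete. After injury, part of these cells become activated, a state known for matrix genes such as Postn and Cthrc1 and for the surface protease Fap. The comparison of VO with sham therefore holds a pair of questions for these genes: whether the level of resident markers differed, and whether activation markers differed relative to them. In whole tissue, fewer fibroblasts and less RNA per fibroblast cannot be told apart.

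Sequence upstream of the RefSeq start (GRCm38.p6) was at hand for 5 of the 10 members, namely Dpt, Gsn (3 starts), Pdgfra, Tcf21 and Pi16. The runs shown are those of Dpt and Pdgfra, whose levels varied most alike among the resident members, and of Pi16, whose level did not vary with theirs. The capitals mark CANNTG, the E-box letters bound by basic helix-loop-helix proteins, the class to which the member Tcf21 belongs. The match is palindromic and was searched on both strands in the 250 bases before each start, and each printed run ends before the gene start of the deposited table. The printed runs lie on the plus strand at chr1:164796413-164796643 (Dpt), chr5:75152001-75152250 (Pdgfra) and chr17:29318632-29318876 (Pi16).
Dpt: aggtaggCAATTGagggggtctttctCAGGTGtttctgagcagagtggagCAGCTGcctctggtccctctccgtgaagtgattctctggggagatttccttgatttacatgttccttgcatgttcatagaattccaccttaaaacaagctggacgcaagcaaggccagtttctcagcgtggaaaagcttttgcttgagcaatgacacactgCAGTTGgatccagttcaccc
Pdgfra: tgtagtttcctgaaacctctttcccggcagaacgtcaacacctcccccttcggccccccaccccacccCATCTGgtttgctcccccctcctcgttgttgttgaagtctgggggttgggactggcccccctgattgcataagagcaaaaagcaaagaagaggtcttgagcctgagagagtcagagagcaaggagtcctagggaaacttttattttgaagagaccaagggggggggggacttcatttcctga
Pi16: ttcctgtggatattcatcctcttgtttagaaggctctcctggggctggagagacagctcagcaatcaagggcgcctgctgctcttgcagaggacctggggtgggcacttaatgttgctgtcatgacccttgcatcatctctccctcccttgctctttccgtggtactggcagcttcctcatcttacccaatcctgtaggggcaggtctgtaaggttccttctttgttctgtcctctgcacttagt
The 250 bases before the start of Dpt held 6 such matches, of which 4 are in the printed run. Pdgfra held 1 match, Pi16 and Tcf21 held 0, and the 3 Gsn windows held 1, 2 and 2. A match is common, since 66.2% of the 32851 windows of this length held at least 1, and 13.0% held the CAGCTG form that Dpt and 2 of the 3 Gsn windows carry.

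Cthrc1 is named for its collagen triple helix repeat, in which glycine recurs at the first codon of each triplet. Its longest such run in the transcript Cthrc1-201 (GENCODE, GRCm38) holds 12 triplets from codon 60 to codon 95 in exon 2 of 4, on the plus strand at chr15:39080504-39080611. It is shown because Cthrc1 had the largest difference among the members, with the glycine codons in capitals.
Cthrc1: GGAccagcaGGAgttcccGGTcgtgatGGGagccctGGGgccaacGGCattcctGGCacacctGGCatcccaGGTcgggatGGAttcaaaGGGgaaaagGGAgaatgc

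The values are FPKM, fragments per kilobase of gene scaled for library size, from libraries with 15963082 to 17237903 fragments on genes. The library size behind the values differed from these fragments, with 18144100 against 16852482 in VO 1 and 15557400 against 16494342 in sham 1. The 12627 genes whose mean FPKM reached 1 were fitted with limma, VO against sham, two-sided, on log2(FPKM + 0.1), which understates the change of low genes. Of the members, 9 passed this filter, and Fap, at a mean of 0.747, was read from a second fit of the 19053 genes whose mean reached 0.1. An exact permutation of 3 libraries against 3 cannot go below p = 0.1. Some libraries stood apart in other cell types: leukocyte, macrophage and cell cycle genes were high in VO 1, adipocyte genes were high in VO 3, and Ddx3y, on the Y chromosome, was above 0.0106 FPKM only in sham 2 and VO 3. Of the markers of the labelled tissue, Myl7, the atrial myosin light chain, was at 2586 to 8501 FPKM.

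Levels per gene length spanned a wide range within the list. Gsn, with a mean of 1072 FPKM over the 6 libraries, ranked 28th of all genes and Dcn, with 278 FPKM, 102nd. Dpt (170 FPKM) and Lum (138 FPKM) followed, with ranges that overlapped each other, though Dpt was above Lum in each library. The ranges of Mfap5 (19.8 FPKM), Tcf21 (18.7 FPKM) and Pdgfra (15.6 FPKM) overlapped, though Mfap5 was above Pdgfra in each library. Pi16 was lower at 7.97 FPKM. The activation members were the lowest, with 1.64 FPKM for Cthrc1 and 0.747 FPKM for Fap. Their ranges overlapped each other, though Cthrc1 was above Fap in each library. At the level of single libraries, the lowest value of any resident member was 6.34 FPKM and the highest value of any activation member was 3.87 FPKM.

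**Figure D1:**
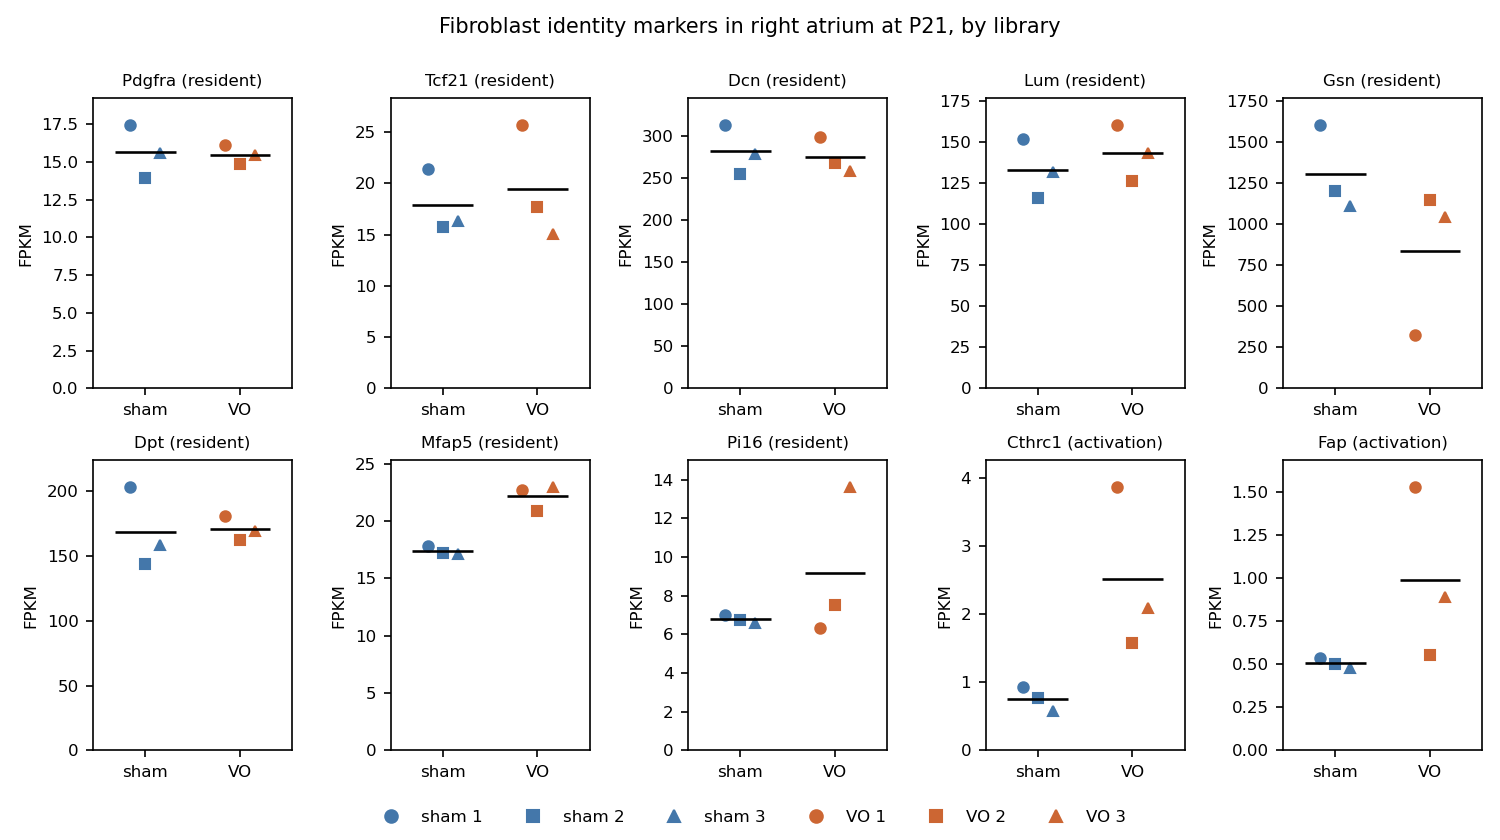
FPKM (vertical axes, each from 0) of the 10 members in 3 sham (blue) and 3 VO (orange) libraries, with symbols for replicates 1, 2 and 3 and a black line at each group's mean. Only Mfap5, Cthrc1 and Fap have all 3 VO libraries above all 3 sham libraries, Gsn is low in VO 1 at 321 FPKM, and Pi16 is high in VO 3 at 13.6 FPKM.

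None of the 9 tested members passed an adjusted p of 0.05, against 0.00792% of all tested genes (1 of 12627). At an unadjusted p under 0.05, 2 members were higher in VO (Mfap5 and Cthrc1), where 3.89% of all tested genes were, and 0 were lower, where 8.08% were. Mfap5 and Cthrc1 were also the tested members without overlap between groups in the direction of VO, which 8.25% of the tested genes showed, while 12.9% were without overlap in the other direction. Cthrc1 passed the filter through its VO libraries, since its sham mean was below 1 FPKM, so these counts carry no weight as a whole. The median log2 fold change of the 8 resident members was 0.07, beside -0.01 for all tested genes. The 8 members differed in sign, with 5 above 0 and 3 below, and scaling decided part of this: with TPM the median of all tested genes was 0.15, the median of the resident members was 0.21 and 7 of them were above 0.

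Pdgfra (ENSMUSG00000029231, chromosome 5 from 75152292 to 75198215) encodes the platelet-derived growth factor receptor alpha, the surface receptor by which resident cardiac fibroblasts are usually recognised. It was read at 17.5, 13.9 and 15.6 FPKM in sham 1 to 3 and at 16.1, 14.9 and 15.4 FPKM in VO 1 to 3. All VO values lay inside the sham range. The means were 15.7 ± 1.78 FPKM in sham and 15.5 ± 0.607 in VO (SD, n = 3 each). The log2 fold change was -0.01 (SE, the standard error, 0.11, adjusted p = 0.969 by limma). The 95% interval of the fold ran from 0.823 to 1.20, on 2403 to 2926 fragments per library. The sign turned to 0.13 with TPM, to 0.06 with quantile normalization and to 0.07 without sham 1.

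Tcf21 (ENSMUSG00000045680, chromosome 10 from 22817281 to 22820174) encodes the transcription factor needed for fibroblasts to form from the epicardium. Its FPKM was 21.4, 15.8 and 16.3 in sham and 25.7, 17.7 and 15.0 in VO. VO 1 was the highest and VO 3 the lowest of the 6, so the groups overlapped. The log2 fold change was 0.10 (SE 0.22, adjusted p = 0.835 by limma) and -0.12 without VO 1. An antisense gene, Gm10824, overlaps Tcf21 and was read at a mean of 0.548 FPKM, and no source used here says whether counting used strand.

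Dcn (ENSMUSG00000019929, chromosome 10 from 97479609 to 97518143) and Lum (ENSMUSG00000036446, chromosome 10 from 97565128 to 97572703) encode decorin and lumican, small leucine-rich proteoglycans that bind collagen fibrils. The genes are neighbours on the plus strand, with 46984 bases between the end of Dcn and the start of Lum. Dcn was read at 313, 254 and 278 FPKM in sham and at 298, 268 and 258 in VO. All VO values lay inside the sham range, and the log2 fold change was -0.03 (SE 0.14, adjusted p = 0.923 by limma), with a sign that turned to 0.11 with TPM and 0.28 with quantile normalization. Lum was read at 152, 116 and 132 FPKM in sham and at 161, 126 and 143 in VO. The VO values interleaved with the sham values, and the log2 fold change was 0.11 (SE 0.15, adjusted p = 0.745 by limma). Lum amounted to 45.7% to 48.4% of the FPKM of Dcn in the sham libraries. In VO it was 53.8%, 47.0% and 55.7%, with VO 2 inside the sham range.

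Dpt (ENSMUSG00000026574, chromosome 1 from 164796644 to 164824266) encodes dermatopontin, a matrix protein of connective tissue. Its FPKM was 204, 144 and 159 in sham and 181, 163 and 169 in VO. The spread in sham (SD 31.2, n = 3) covered all VO values (SD 9.07, n = 3). The log2 fold change was 0.03 (SE 0.15, adjusted p = 0.935 by limma), and the 95% interval of the fold ran from 0.795 to 1.32.

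Pdgfra, Tcf21, Dcn, Lum and Dpt varied together across libraries, more than the other 3 resident members did over all 6. Across the 6 libraries, Pearson's r of log2(FPKM + 0.1) between these 5 genes was 0.62 to 0.96 over 10 pairs, with a median of 0.84, and it was 0.64 to 0.97 once group means were removed. The highest value was that of Pdgfra with Dpt, at 0.96. Dcn, Dpt and Pdgfra were highest in sham 1 and lowest in sham 2, libraries of the same group. Their shared deviation, averaged over the 5 genes as log2 units from each gene's mean, was 0.20 in sham 1 and 0.19 in VO 1 and lay between -0.20 and -0.06 in the other libraries, so it did not follow the groups. These correlations rest on 6 libraries and on values that share each library's depth and scaling. They were 0.50 to 0.96 without VO 1 and 0.68 to 0.98 without VO 3. The 5 genes were grouped after their values were seen. Over all 6 libraries, r with these 5 genes was -0.63 to -0.05 for Gsn, -0.52 to 0.09 for Pi16 and -0.07 to 0.50 for Mfap5. For Gsn this rested on VO 1, since without that library r was 0.43 (Lum) to 0.92 (Tcf21). For Mfap5, r was 0.26 (Tcf21) to 0.72 (Lum) once group means were removed.

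Gsn (ENSMUSG00000026879, chromosome 2 from 35256380 to 35307892) encodes gelsolin, a protein that severs actin filaments and is abundant in fibroblasts but not restricted to them. Its FPKM was 1604, 1203 and 1111 in sham and 321, 1149 and 1042 in VO. VO 1 held less than any other library by a wide margin, while VO 2 lay inside the sham range and VO 3 just below it. The means were 1306 ± 262 FPKM in sham and 837 ± 450 in VO (SD, n = 3 each), a log2 fold change of -0.83 (SE 0.48, adjusted p = 0.473 by limma). Without VO 1 the log2 fold change was -0.24. Relative to Pdgfra, Gsn stood at 91.8, 86.5 and 71.3 times its FPKM in sham and at 20.0, 77.2 and 67.5 times in VO, so the low value of VO 1 was not shared by the receptor. VO 1 was also the library with the lowest sum of the 10 atrial cardiomyocyte markers, 10159 FPKM against 14124 to 27147 in the others. The sum of the 6 smooth muscle markers was lowest there too, 84.8 FPKM against 139 to 140 in the other VO libraries and 180 to 241 in sham. Both sums were lower in all VO libraries than in any sham library. Most of the smooth muscle sum was Acta2, and of the 5 tested markers of that list, 2 were higher and 3 lower in VO. The part of these cell types in the value of Gsn was not tested.

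Mfap5 (ENSMUSG00000030116, chromosome 6 from 122505845 to 122529290) encodes a microfibril-associated glycoprotein of elastic fibres. Its FPKM was 17.8, 17.2 and 17.1 in sham and 22.7, 20.9 and 23.0 in VO. All VO libraries were above all sham libraries, and the sham values spread by only 2.15% (coefficient of variation). The means were 17.4 ± 0.373 FPKM in sham and 22.2 ± 1.14 in VO (SD, n = 3 each), a log2 fold change of 0.35 (SE 0.09, unadjusted p = 0.0071 and adjusted p = 0.373 by limma). The fold was 1.27 with a 95% interval of 1.09 to 1.48, on 994 to 1476 fragments per library, and the exact permutation p was 0.1, the smallest possible. Leaving out any 1 library gave a log2 fold change of 0.32 to 0.39. As a share of Pdgfra, Mfap5 stood at 102%, 124% and 110% in sham and at 141%, 140% and 149% in VO, again without overlap.

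Pi16 (ENSMUSG00000024011, chromosome 17 from 29318877 to 29329413) encodes peptidase inhibitor 16 and marks adventitial fibroblasts around vessels. Its FPKM was 7.00, 6.74 and 6.59 in sham and 6.34, 7.52 and 13.6 in VO. VO 3 stood apart from the other libraries, and VO 1 was the lowest of all. The log2 fold change was 0.35 (SE 0.26, adjusted p = 0.554 by limma), the same size as for Mfap5, and 0.03 without VO 3. As a share of Pdgfra, Pi16 was 40.1%, 48.4% and 42.3% in sham and 39.4%, 50.6% and 88.3% in VO. VO 3 was also the library with adipocyte transcripts, since the 7 adipocyte markers summed to 618 FPKM there and to 1.59 to 3.23 FPKM in the others. Ucp1, the uncoupling protein of brown fat, was at 254 FPKM in VO 3 and at 0 in the other libraries. Their part in the level of Pi16 was not tested.

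Cthrc1 (ENSMUSG00000054196, chromosome 15 from 39076932 to 39087121) encodes a secreted protein that activated fibroblasts make after cardiac injury. Its FPKM was 0.928, 0.765 and 0.578 in sham and 3.87, 1.58 and 2.10 in VO. All VO libraries were above all sham libraries, and the lowest VO value came from VO 2. The fragments behind these values were 23, 21 and 15 in sham and 112, 41 and 55 in VO. Exact 95% Poisson intervals, which cover counting error only, ended at 34.5 fragments for sham 1, the highest sham library, and began at 29.4 for VO 2, so the intervals of this nearest pair overlapped. The means were 0.757 ± 0.175 FPKM in sham and 2.52 ± 1.20 in VO (SD, n = 3 each). The log2 fold change was 1.54 (SE 0.36, unadjusted p = 0.00365 and adjusted p = 0.344 by limma), a fold of 2.90 with a 95% interval of 1.61 to 5.22. The exact permutation p was 0.1. Without VO 1 the log2 fold change was 1.18, and without both VO 1 and VO 3 it was 0.99 with VO 2 as the only VO library, a choice made after the data were seen.

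Fap (ENSMUSG00000000392, chromosome 2 from 62500943 to 62574075) encodes fibroblast activation protein, a serine protease of the cell surface. Its FPKM was 0.534, 0.502 and 0.477 in sham and 1.53, 0.552 and 0.891 in VO. The groups did not overlap, but VO 2 exceeded sham 1 by little, with 51 fragments against 47. The sham libraries held 44 to 49 fragments and VO 1 held 157. The log2 fold change was 0.75 (SE 0.36, unadjusted p = 0.0740 and adjusted p = 0.514 by limma over 19053 genes), with a 95% interval of -0.09 to 1.60, and 0.41 without VO 1. The exact permutation p was 0.1.

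**Figure D2:**
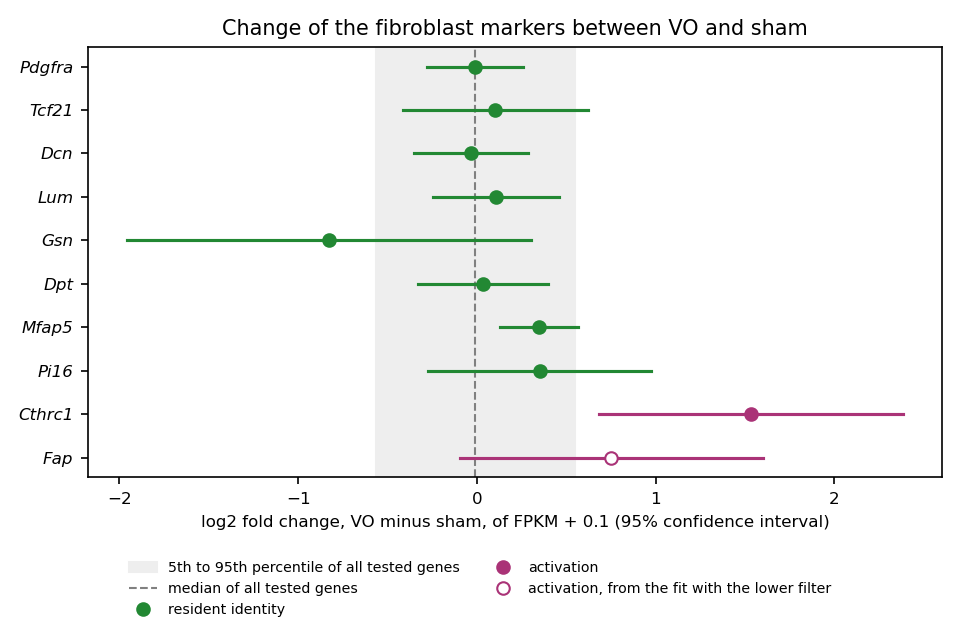
Log2 fold change, VO minus sham, of FPKM + 0.1 (horizontal axis) for each member, with 95% confidence intervals, for resident (green) and activation (purple) genes, where the open point is Fap from the fit with the lower filter. The grey band spans the 5th to the 95th percentile of all tested genes (-0.57 to 0.55) and the dashed line is their median of -0.01. The intervals of Mfap5 and Cthrc1 do not include 0, and those of the other members do.

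Activation was then set against identity within each library. The mean log2(FPKM + 0.1) of Cthrc1 and Fap minus that of the 8 resident members was -6.49, -6.34 and -6.61 in sham and -4.56, -5.93 and -5.54 in VO. The groups did not overlap, and the difference of their means was 1.13 on the log2 scale. The 8 resident genes alone averaged 5.99 ± 0.163 in sham and 6.00 ± 0.0948 in VO (SD, n = 3 each), and these differed by 0.0091 between the groups. This mean joined 5 genes higher and 3 lower in VO. Their log2 fold changes ran from -0.83 for Gsn to 0.35 for Mfap5 and Pi16. In VO 1 the 8 genes averaged -0.086 log2 units from their own means, while Pdgfra, Tcf21, Dcn, Lum and Dpt averaged 0.19. The low Gsn of VO 1 therefore entered the activation-minus-resident value of that library as well. As a share of the FPKM of Pdgfra, Cthrc1 was 5.31%, 5.50% and 3.71% in sham and 24.1%, 10.6% and 13.6% in VO. Fap was 3.05%, 3.61% and 3.06% of Pdgfra in sham and 9.50%, 3.71% and 5.77% in VO. Among the VO libraries, VO 1 lay farthest from the sham values and VO 2 nearest to them. In VO 2 the share of Fap was 3.71% against 3.61% in sham 2. Both activation genes ranked the 6 libraries in the same order (Spearman's rho 1.00, Pearson's r 0.93), and Cthrc1 stood at 1.21 to 1.74 times the FPKM of Fap in sham and at 2.36 to 2.86 times in VO. Mfap5, counted here among the resident genes, followed Cthrc1 across libraries (r = 0.94), while Pdgfra did not (r = 0.16). Once group means were removed, r with Cthrc1 was 0.69 for Mfap5 and 0.46 for Pdgfra, so part of this contrast restates the group difference. These correlations are descriptions over 6 libraries that differ by group.

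**Figure D3:**
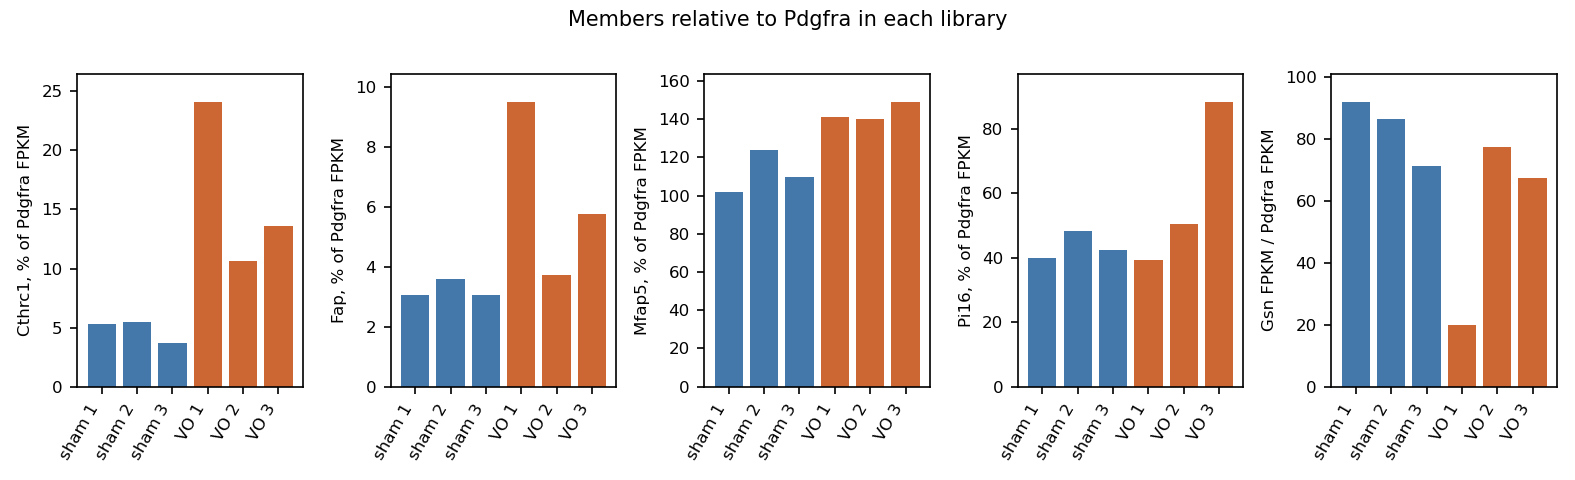
Bars give the FPKM of Cthrc1, Fap, Mfap5 and Pi16 as a percentage of that of Pdgfra, and of Gsn as a multiple of Pdgfra, in each of 3 sham (blue) and 3 VO (orange) libraries. Cthrc1, Fap and Mfap5 are higher in all VO libraries than in any sham library, with 3.71% for Fap in VO 2 against 3.61% in sham 2, Pi16 stands out in VO 3 at 88.3%, and Gsn is low in VO 1 at 20.0 times.

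VO 1 had the highest Cthrc1 and Fap, and also the most transcripts of leukocytes and of dividing cells. The 11 leukocyte and macrophage markers summed to 953 FPKM in VO 1, 3.01 times the sham mean, and to 274 to 382 FPKM in the other libraries. All 11 were tested, with 11 higher in VO, of which 1 had an unadjusted p under 0.05 by limma. Of all tested genes, 3.89% were higher at that threshold. The median log2 fold change of the 11 was 0.61, and 0.23 without VO 1. Without that library 9 of the 11 were higher and 2 lower, and 2 were higher at that threshold (2.44% of all tested genes). Lyz2, the lysozyme of myeloid cells and the highest of them, was at 485 FPKM in VO 1 and at 106 to 161 elsewhere. The 6 cell cycle genes summed to 16.7 FPKM in VO 1 and to 3.08 to 4.29 in the others. Mki67, the most abundant cell cycle gene, was at 5.08 FPKM in VO 1 and at 0.677 to 1.17 elsewhere. VO 2 lay inside the sham range for leukocyte markers (314 FPKM), cell cycle genes (3.30 FPKM) and adipocyte markers (2.16 FPKM), and outside it for cardiomyocyte, smooth muscle (139 FPKM) and pericyte markers (129 FPKM). Acta2, the smooth muscle actin that is also made by myofibroblasts and is the most abundant of the smooth muscle markers, was at 154, 136 and 201 FPKM in sham and 54.1, 98.7 and 98.9 in VO. All VO libraries were below all sham libraries, the opposite of Cthrc1 and Fap (fold 0.5 with a 95% interval of 0.323 to 0.776, unadjusted p = 0.00733 and adjusted p = 0.373 by limma). The part of these other cell types in the activation values was not tested. The 10 atrial cardiomyocyte markers summed to 21065 to 27147 FPKM in sham and to 10159 to 18308 in VO, without overlap, so this difference moved with the groups as the activation genes did, and its part in the members' values was not tested. The 9 endothelial markers summed to 306 to 339 FPKM in all libraries, with Pecam1, the most abundant, at 55.3 to 69.9 FPKM. The 9 epicardial and mesothelial markers, which share their origin with fibroblasts, summed to 36.5 to 117 FPKM in sham and 45.4 to 122 in VO, with Upk3b, the most abundant, at 11.9 to 38.3 FPKM.

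**Figure D4:**
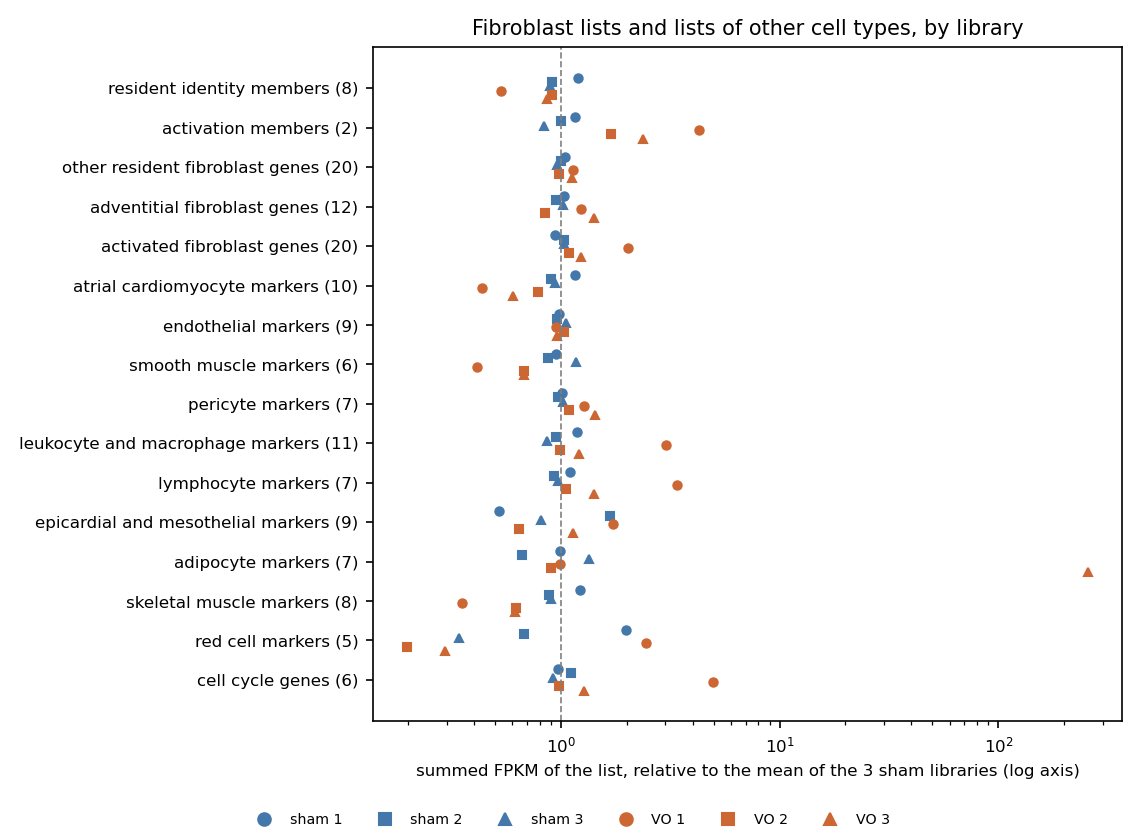
Summed FPKM of each marker list, relative to the mean of the 3 sham libraries (horizontal log axis), for 3 sham (blue) and 3 VO (orange) libraries, with the number of genes of each list in brackets. VO 1 stands apart for leukocyte (3.01) and cell cycle genes (4.96), VO 3 for adipocyte genes (257), and the resident members of VO 1 are low (0.530) through Gsn.

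Other fibroblast genes were read from lists that do not hold the members. Of 20 other resident fibroblast genes, all were tested, 4 were higher at an unadjusted p under 0.05, 0 were lower and 0 passed the adjusted threshold, with a median log2 fold change of 0.20. Over all tested genes, 3.89% were higher and 8.08% lower. Without VO 1, 1 of the 20 was higher, against 2.44% of all tested genes, and with TPM 9 were, against 8.06%. The collagen genes Col3a1 and Col1a2 were among the 3 with the smallest p. Col3a1 was read at 208, 275 and 246 FPKM in sham and 475, 267 and 395 in VO (log2 fold change 0.61, SE 0.23, adjusted p = 0.410 by limma), and VO 2 lay inside the sham range. Col1a2 had the same pattern, with 48.2, 69.9 and 60.7 FPKM in sham and 108, 64.1 and 94.7 in VO (log2 fold change 0.56, adjusted p = 0.411). Fbln2, which encodes the matrix protein fibulin-2, was at 21.2, 26.8 and 24.3 FPKM in sham and 32.7, 27.4 and 30.4 in VO, without overlap (log2 fold change 0.33, adjusted p = 0.410). Mgp, the matrix Gla protein and the most abundant gene of the list, stood at 666, 403 and 424 FPKM in sham and at 241, 402 and 372 in VO, all VO values below sham by a narrow margin at VO 2 (log2 fold change -0.55, adjusted p = 0.432).

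Of 12 adventitial fibroblast genes, the group to which Pi16 belongs, all were tested, and 1 was higher and 0 lower at an unadjusted p under 0.05 (3.89% and 8.08% of all tested genes). This was Fbn1, the fibrillin that microfibrils such as those of Mfap5 are built on. Fbn1 was read at 14.0, 21.6 and 17.3 FPKM in sham and 36.9, 22.7 and 27.7 in VO, without overlap (log2 fold change 0.72, SE 0.22, adjusted p = 0.404 by limma). The median of the list was 0.25 and 0.03 without VO 3. Anxa3, which encodes annexin A3, had a log2 fold change of 0.38 and Sema3c, a semaphorin, of 0.35, with overlapping groups and adjusted p of 0.432 and 0.547 by limma. Ly6a, the stem cell antigen Sca-1 and the most abundant gene of the list, was at 82.9, 61.9 and 89.0 FPKM in sham and 105, 58.0 and 122 in VO (log2 fold change 0.23). With VO 1 and VO 3 left out, the fold changes of Sema3c and Ly6a turned to -0.19 and -0.41.

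Of 20 activated fibroblast genes, 16 were tested, 4 were higher and 1 was lower at an unadjusted p under 0.05, and 0 passed the adjusted threshold, with a median log2 fold change of 0.31. Over all tested genes these shares were 3.89% higher and 8.08% lower. The 4 higher genes were Lox, Fn1, Tnc and Aspn. Tnc passed the filter through its VO libraries, since its sham mean was 0.650 FPKM, and its call carries no weight in this count. Without VO 1, 2 of 15 tested genes were higher and 0 lower (2.44% and 5.09% of all tested genes), and with TPM 7 of 20 were higher and 0 lower (8.06% and 3.44%). Lox, the lysyl oxidase that cross-links collagen, was at 5.80, 6.65 and 5.15 FPKM in sham and 15.4, 6.95 and 9.48 in VO (log2 fold change 0.78, SE 0.28, adjusted p = 0.406 by limma). Fn1, fibronectin, was at 14.8, 22.3 and 24.7 FPKM in sham and 52.4, 28.7 and 28.8 in VO (log2 fold change 0.80, adjusted p = 0.407). Tnc, tenascin C, was at 0.496, 0.814 and 0.640 FPKM in sham and 2.58, 1.02 and 1.26 in VO (log2 fold change 1.11, adjusted p = 0.408). In these 3 genes, picked by smallest p, the groups did not overlap and VO 1 was the highest library, as it was for Cthrc1 and Fap. Of the 16 tested genes, 7 were without overlap in the direction of VO and 0 in the other direction. Over all tested genes these shares were 8.25% and 12.9%. Tnc is among the 7 and carries no weight in this count either. Postn, periostin and the most abundant gene of the list, was at 35.0, 34.0 and 39.4 FPKM in sham and 106, 41.7 and 43.9 in VO (log2 fold change 0.68, adjusted p = 0.438). Comp, the cartilage oligomeric matrix protein, was the gene lower in VO, with 10.8, 10.3 and 12.3 FPKM in sham and 6.43, 10.8 and 6.70 in VO (log2 fold change -0.51, adjusted p = 0.411). VO 2 lay inside the sham range, and the list held 0 lower calls without VO 1, without VO 3, with TPM, with quantile normalization and with the replicate block. Aspn and Comp are named here because their values stood out.

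**Figure D5:**
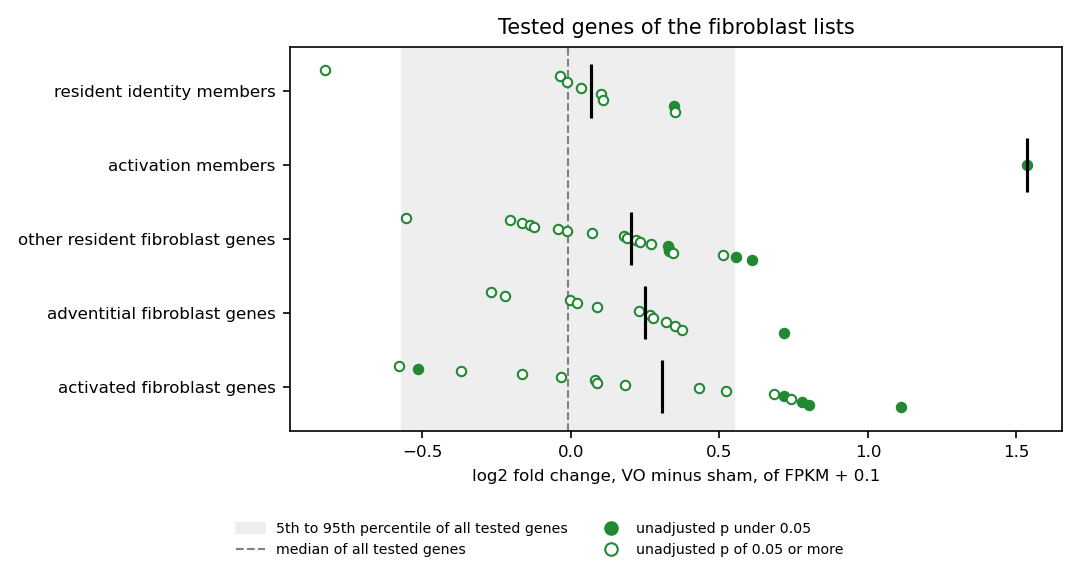
Log2 fold change, VO minus sham, of FPKM + 0.1 (horizontal axis) for each tested gene of 5 fibroblast lists, filled where the unadjusted p is under 0.05, with a black line at the list's median. The medians are 0.07 for the resident members, 0.20 for other resident genes, 0.25 for adventitial genes and 0.31 for activated genes, inside the grey band of the 5th to the 95th percentile of all tested genes, and Cthrc1 lies outside it at 1.54.

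The genes whose log2 levels followed the members most closely over the 6 libraries were not fibroblast genes of these lists. The mean of the resident members, each centred on its own mean, was matched best by Rasd1, Gm9616, Ndfip1, Pex16 and Tbce, with Pearson's r of 0.98 to 0.99 over 12618 genes compared, of which 31 had an r of at least 0.95. Cthrc1 was matched best by Pcgf3, Rspry1 and Sav1 (r of 0.99, 68 genes at 0.95 or more), and Fap by Fmnl1, Foxn2 and Ankrd44 (r of 0.99 to 1.00, 173 genes at 0.95 or more). Fmnl1, a formin of leukocytes, was highest in VO 1 and next highest in VO 3 (3.31 FPKM), as Fap was. With 6 libraries, r is high for many genes, and nothing is read from these matches.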

How the data were processed

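RNA of RAs at P21 was sequenced in 3 sham and 3 VO libraries. According to the submitters' notes and the study's methods, the authors aligned reads with HISAT2 2.0.5 to GRCm38, counted them on genes with featureCounts 1.5.0-p3 and computed FPKM from counts and gene length, which is the deposited unit. Of the lines in the table, 1 was incomplete and left out. Each FPKM was a whole multiple of a step per library (tolerance 0.05 fragments, 100% of values), which gave the fragments. Median-of-ratios factors were 1.00. Genes whose mean FPKM reached 1 were fitted on log2(FPKM + 0.1) with limma 3.58.1 in R 4.3.3 (trend, two-sided, Benjamini-Hochberg over all tested genes, threshold 0.05); the fit was tested on simulated data. The replicate numbers gave no sign of pairing (correlations of deviations -0.108, 0.0112 and -0.0292), which with 3 libraries a group cannot show that samples were unpaired. Members and lists were chosen with earlier results of these data known. Named beside the members were, for each fibroblast list, the 3 genes with the smallest p and the most abundant one, and for each other cell type the summed FPKM and the most abundant gene. The result of 1 further cell type list is not reported here. Alternatives were other pseudocounts (1 and 0.01), filters (0.1 and none), FPKM without rescaling, TPM, quantile normalization, array weights, voom on the fragments, a replicate block and each library left out. Coordinates equalled those of GENCODE M21 for 98.4% of shared genes. Figures were drawn with matplotlib 3.10.9.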

Additional observations from a re-analysis of the deposited data

How the results depend on the processing

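No member passed an adjusted p of 0.05 under any of the 17 alternatives, where the lowest adjusted p of the 22 named genes was 0.199. The median of the resident members was 0.21 with TPM and 0.28 with quantile normalization, and -0.04 to 0.19 with 1 library left out. The median of Cthrc1 and Fap, 1.14, was 0.66 with a pseudocount of 1, 0.55 without VO 1 and VO 3, and 0.80 to 1.44 with 1 library left out; the difference between activation and resident levels, 1.13, was 0.55 without both and 0.75 to 1.43 with 1 left out. The 1 gene of all tested that passed the adjusted threshold became 2 with a pseudocount of 1 or TPM, 3 with a filter of 0.1, and 0 with quantile normalization, the replicate block, VO 1 and VO 3 left out, or any 1 library left out (0 to 0).

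Of 374 values for the 22 named genes, 17 changed sign, in 7 genes. This total includes alternatives that could not change a fold change here, so it overstates how much was tried. These were the other filters, FPKM without rescaling and the replicate block. Pdgfra turned to 0.13 with TPM, 0.057 with quantile normalization and 0.021 with array weights, Dcn to 0.11 with TPM and 0.28 with quantile normalization, and, without VO 1 and VO 3, Lum to -0.072, Dpt to -0.035, Sema3c to -0.19 and Ly6a to -0.41. With 1 library left out, Pdgfra ran from -0.099 to 0.067, Tcf21 from -0.12 to 0.27, Dcn from -0.11 to 0.041 and Dpt from -0.079 to 0.17. The cause was not tested. With the replicate block, 0 members passed the adjusted threshold. The median of the resident members stayed at 0.07, which was fixed in advance, since a block in this balanced design cannot change a fold change. Depth limits Cthrc1 in sham, at 15 to 23 fragments.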

Other observations

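Among the activated fibroblast genes below a mean of 1 FPKM, Ltbp2, which encodes a protein that binds microfibrils, was at 0.511, 0.362 and 0.495 FPKM in sham and 1.35, 0.607 and 1.93 in VO, without overlap (log2 fold change 1.21, standard error 0.41, limma's adjusted p = 0.499 over 19053 genes). Adam12, a metalloprotease, was at 0.213, 0.373 and 0.395 FPKM in sham and 0.683, 0.319 and 1.70 in VO, with VO 2 inside the sham range. Both genes were highest in VO 3, unlike Cthrc1 and Fap, and were chosen after their values were seen.

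The 7 pericyte markers summed to 119, 115 and 121 FPKM in sham and 151, 129 and 169 in VO, without overlap. Most of this sum was Rgs5, at 64.6 to 73.2 FPKM in sham and 79.1 to 110 in VO. All 7 were tested, with 5 higher and 2 lower in VO. Singly, 3 were without overlap in the direction of VO, which 8.25% of all tested genes showed, and 0 in the other direction (12.9%). The 8 skeletal muscle markers summed to 145 to 201 FPKM in sham and 57.9 to 102 in VO, without overlap. Nearly all of this was Ckm, the muscle creatine kinase that heart muscle also makes, at 199, 143 and 143 FPKM in sham and 56.4, 101 and 98.4 in VO (log2 fold change -0.95, SE 0.26, unadjusted p = 0.00739 and adjusted p = 0.373 by limma). The list held 2 genes at 0 in all libraries, Myh1 and Myf6, and 6 genes, these included, under 1 FPKM in all libraries. The 5 red cell markers summed to 6972 FPKM in sham 1 and 8580 in VO 1, against 695 to 2382 FPKM in the other libraries, and Hbb-bs, the most abundant, was at 4846 FPKM in VO 1. The 7 lymphocyte markers summed to 5.44 FPKM in VO 1 and to 1.49 to 2.26 in the others, with Cd79a, the most abundant, at 0.464 to 1.32 FPKM.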
